A study of Mus musculus with 220 samples.

Results

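The 9 genes described here code for the vesicle machinery of the endothelial plasma membrane: the caveolins Cav1 and Cav2, the cavins Ptrf, Sdpr and Prkcdbp, the diaphragm protein Plvap, and the membrane-remodelling ATPases Ehd2, Ehd3 and Ehd4. They were taken by name from the 24049 genes of the expression table, and all 9 were found. Single-cell RNA sequencing had been done on lymph node endothelial cells of C57BL/6 mice, purified by flow cytometry, with 1 library per cell after capture on the Fluidigm C1 system. The 65 inflamed high endothelial cells (HEC) came from mice given 4% oxazolone, a contact sensitiser, on the skin and were collected on day 3. The 44 dedifferentiated HEC were collected on day 7 after a single intraperitoneal dose of LTBR-Ig, a decoy of the lymphotoxin beta receptor. The 79 homeostatic HEC and the 32 blood endothelial cells (BEC) came from untreated mice. HEC line the venules at which lymphocytes enter the node, and BEC are the other blood vessel cells. The labels name neither animals nor pools, chips or sort gates, so each group is 1 sample, cells are not replicates of a condition, and group, chip and day of collection cannot be told apart. Inflamed cells 43 and 60 were near-identical (Pearson r 0.988, against 0.701 for the next closest pair of cells) and were averaged, which left 64 inflamed HEC and 219 cells.

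Caveolae are flask-shaped pits of the plasma membrane that are abundant in endothelium. Caveolins are embedded in the membrane and cavins bind to them from the cytoplasm to form the coat, while EHD proteins are ATPases that assemble on bent membranes, Ehd2 at the neck of caveolae and the others mainly on recycling endosomes. Plvap forms the diaphragms that span the openings of caveolae, fenestrae and transendothelial channels, and caveolae take part in transport across the endothelium, in buffering of membrane tension and in signalling.

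Values are the authors' FPKM, fragments scaled to transcript length and to the mapped fragments of the cell, so that levels of different genes can be compared. The FPKM of a cell summed to a median of 610269 in inflamed, 651524 in dedifferentiated and 664817 in homeostatic HEC and 469532 in BEC. The main values were not rescaled for this. A difference is the difference of the mean log2(FPKM + 1) over cells. A gene was called higher or lower at a difference of at least 1. The approximate depth ranged from 717000 to 3662000 fragments in inflamed HEC, from 792000 to 3000000 in dedifferentiated HEC, from 808000 to 5020000 in homeostatic HEC and from 1360000 to 3281000 in BEC. A median of 3961, 3075, 3842 and 2870.5 genes reached 1 FPKM in these 4 groups, in the same order. All 7 high endothelial markers (Glycam1, Chst4, Fut7, Gcnt1, Ubd, Ackr1 and Enpp2) reached 1 FPKM in over 10% of the cells of each HEC group, and 5 of the 7 did so in BEC. At least 2 of them reached 10 FPKM in every HEC and in 27 of 32 BEC. The markers summed to a median of 17886 FPKM in inflamed HEC, 17794 in dedifferentiated HEC, 73100 in homeostatic HEC and 427 in BEC.

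Positions are from GENCODE release M21 on GRCm38. Cav2 (chromosome 6, 17281185 to 17289115, plus strand) and Cav1 (17306335 to 17341452, plus strand) are neighbours with 17219 bases between them. Ehd3 is on chromosome 17 (73804134 to 73832094, plus strand), Ehd4 on chromosome 2 (120089175 to 120154606, minus strand) and Ehd2 on chromosome 7 (15946958 to 15967567, minus strand). The cavins Ptrf (now Cavin1, chromosome 11, 100956733 to 100970887, minus strand), Sdpr (now Cavin2, chromosome 1, 51289126 to 51302960, plus strand) and Prkcdbp (now Cavin3, chromosome 7, 105480083 to 105482300, minus strand) lie on separate chromosomes, and Plvap is on chromosome 8 (71497765 to 71511752, minus strand). No stretch of 50 bases in their longest transcripts was shared, on the same strand, with a transcript of another gene. Other annotated genes overlap the spans, introns included, of Cav1 and Cav2 (antisense Gm15581), Sdpr (antisense 9330175M20Rik), Prkcdbp (Gm45667) and Plvap (Gtpbp3). Overlap of exons was not computed, and the strand setting of the counting is not given in the sources used here. Any reads from bases that such a pair shares cannot be told apart.

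Promoter sequence is shown for the genes with the largest differences between HEC and BEC in the 2 directions, Ehd3 and Sdpr, and for the neighbours Cav2 and Cav1, which differed in their relation to BEC. Each run is the 250 bases before the RefSeq start in GRCm38.p6, 5′ to 3′ on the plus strand, which is the strand of all 4 genes. Capitals mark matches, on either strand, to CNGGAA (ETS factors), ACAAT (SOX factors), TGANTCA (AP-1), CACCC (KLF factors) or the NF-kB motif, searched by its usual 10-base form. These motifs were chosen after the members' values were known, and matches may overlap. The RefSeq start of Ehd3 is that of its coding transcripts in GENCODE, and a transcript with no coding sequence begins upstream of it.
Ehd3 (chr17:73804591-73804840): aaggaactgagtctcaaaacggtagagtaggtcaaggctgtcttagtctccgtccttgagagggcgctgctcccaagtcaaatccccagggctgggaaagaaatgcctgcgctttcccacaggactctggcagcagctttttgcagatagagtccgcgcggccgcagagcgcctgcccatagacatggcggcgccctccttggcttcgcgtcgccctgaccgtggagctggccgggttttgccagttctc
Sdpr (chr1:51288876-51289125): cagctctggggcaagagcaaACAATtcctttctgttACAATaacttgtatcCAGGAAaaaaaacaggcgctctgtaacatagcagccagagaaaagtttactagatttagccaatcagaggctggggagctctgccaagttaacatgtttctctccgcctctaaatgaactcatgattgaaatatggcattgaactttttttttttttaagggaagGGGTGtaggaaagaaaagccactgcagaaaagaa
Cav2 (chr6:17280935-17281184): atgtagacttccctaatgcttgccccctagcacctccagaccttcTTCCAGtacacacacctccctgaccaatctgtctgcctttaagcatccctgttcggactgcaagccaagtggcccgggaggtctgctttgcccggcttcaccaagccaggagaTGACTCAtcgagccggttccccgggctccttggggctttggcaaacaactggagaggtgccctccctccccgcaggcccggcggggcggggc
Cav1 (chr6:17306085-17306334): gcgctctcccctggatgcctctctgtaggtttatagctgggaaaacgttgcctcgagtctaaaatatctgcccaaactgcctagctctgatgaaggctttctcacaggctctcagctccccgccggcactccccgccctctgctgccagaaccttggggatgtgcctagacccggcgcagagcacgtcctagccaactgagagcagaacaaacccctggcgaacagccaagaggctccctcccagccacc

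The Ehd3 window held 16 CpG dinucleotides and the Sdpr window 2, against a median of 6 over the 27025 RefSeq windows of the same length. Cav2 and Cav1 had 10 each, Ehd2 and Ptrf 12 each and Ehd4 21. GC content was 60% for Ehd3, 40.4% for Sdpr, 62% for Cav2 and 59.6% for Cav1, with a median of 52% over all windows. None of the 5 motifs was found upstream of Ehd3 or Cav1 in these 250 bases. Sdpr held a pair of SOX matches, 1 ETS match and 1 KLF match, and Cav2 held 1 ETS and 1 AP-1 match. Of all windows, 53.98% held the ETS motif, 51.3% the KLF motif, 28.3% the SOX motif, 6.87% the AP-1 motif and 7.01% the NF-kB motif. Past the start, Ehd3 and Cav2 held 1 and 2 ETS matches and Cav1 held 1 SOX match, motifs found in 61.5% and 31.6% of all windows extended by 50 bases. The first 10 bases of the Ehd3 transcript, GGGGACTTCC (chr17:73804841-73804850), matched the NF-kB motif and overlapped the ETS match of Ehd3, and 8.18% of all extended windows contained the NF-kB motif. A match is a description of the letters only. Of the 9 members, 7 had an entry in the RefSeq table, and Plvap and Prkcdbp were not used in this comparison.

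Cav1, the structural protein without which endothelial caveolae do not form, was among the most abundant transcripts of every group. It ranged from 2.01 to 4090 FPKM in inflamed HEC (median 333), from 4.50 to 4861 in dedifferentiated HEC (median 405), from 2.20 to 1855 in homeostatic HEC (median 501) and from 0 to 1680 in BEC (median 708). The groups overlapped over nearly their whole range, and 1 BEC alone was listed at 0. By mean log2 level Cav1 stood at percentile 99.1 of all genes in inflamed HEC, 99.3 in dedifferentiated HEC, 99.4 in homeostatic HEC and 99.7 in BEC. Its mean log2 level was 8.59 ± 1.48 in homeostatic HEC and 8.49 ± 2.32 in BEC (SD over cells, n = 79 and 32), a difference of 0.11 that turned to -0.99 when cells were rescaled by median ratios. The difference was -0.66 in inflamed against homeostatic HEC and -0.46 in dedifferentiated against homeostatic HEC, the second of which was 0.70 after rescaling by median ratios and 0.05 from arithmetic means. None of these was called.

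Cav2, which forms mixed oligomers with Cav1, was lower in homeostatic and inflamed HEC than in BEC. It ranged from 0 to 777 FPKM in inflamed HEC (median 97.0), from 1.16 to 840 in dedifferentiated HEC (median 170), from 0 to 888 in homeostatic HEC (median 119) and from 0.85 to 1758 in BEC (median 375). Homeostatic HEC lay 1.46 below BEC on the log2 scale, with 7 of 32 BEC above the highest homeostatic HEC and 6 of 79 homeostatic HEC below the lowest BEC, and 2.48 below after rescaling by median ratios. Inflamed HEC lay 1.93 below BEC, and dedifferentiated HEC had a difference of -0.95 from BEC, which passed the limit from arithmetic means, at -1.12. Against homeostatic HEC, Cav2 differed by -0.48 in inflamed and by 0.51 in dedifferentiated HEC, and the second was 1.63 after rescaling by median ratios. The balance of the 2 caveolins differed between the cell kinds: Cav1 had the higher FPKM in 53 of 64 inflamed HEC, 35 of 44 dedifferentiated HEC and 67 of 79 homeostatic HEC, but in 15 of 32 BEC. The ratio of their mean FPKM, Cav1 over Cav2, was 2.72 in inflamed, 2.55 in dedifferentiated and 2.73 in homeostatic HEC and 1.36 in BEC.

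**Figure D1:**
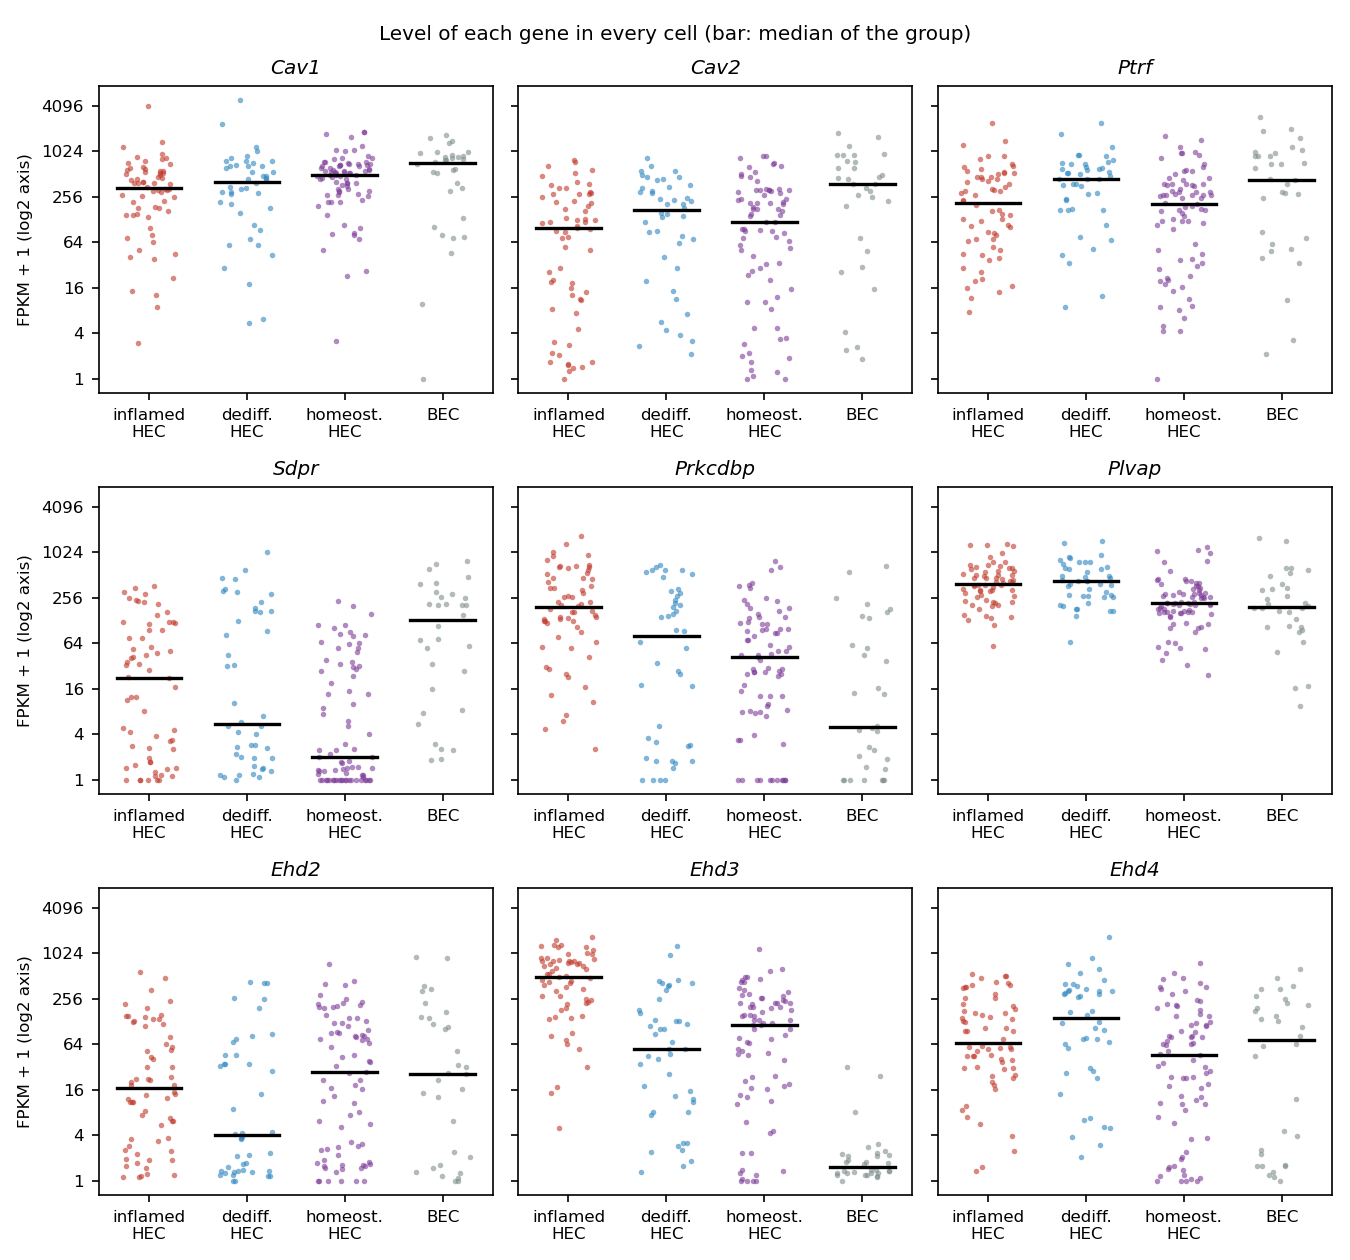
Level of each of the 9 genes in every cell, as FPKM + 1 on a log2 axis. Points are single cells (64 inflamed HEC, 44 dedifferentiated HEC, 79 homeostatic HEC, 32 BEC) and bars are group medians. For Ehd3, the BEC lie low, with a median of 0.53 FPKM, and the inflamed HEC high, with a median of 502 FPKM, whereas Sdpr is spread from 0 upward in every HEC group.

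Of the cavins, Sdpr and Prkcdbp differed from BEC in opposite directions. Ptrf, the cavin needed for all caveolae, was present in nearly all cells: it reached 1 FPKM in every inflamed HEC, dedifferentiated HEC and BEC and in 78 of 79 homeostatic HEC. It ranged from 6.74 to 2432 FPKM in inflamed HEC (median 212), from 7.98 to 2389 in dedifferentiated HEC (median 442), from 0 to 1602 in homeostatic HEC (median 204) and from 1.17 to 2928 in BEC (median 427). The medians of dedifferentiated HEC and BEC lay close together, and those of inflamed and homeostatic HEC lay below both. The difference was -1.01 between homeostatic HEC and BEC, a call that was lost with a pseudocount of 10 (-0.95), while rescaling by median ratios gave -2.07 and matching on genes detected -2.24. Between dedifferentiated and homeostatic HEC it was 1.30, where arithmetic means gave 0.77 and median ratios 2.46. It was 0.39 between inflamed and homeostatic HEC.

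Sdpr, a cavin that helps to shape the caveolar membrane and is needed for caveolae in only some vascular beds, showed the largest deficit of any member in homeostatic HEC. It ranged from 0 to 368 FPKM in inflamed HEC (median 21.4), from 0 to 1016 in dedifferentiated HEC (median 4.56), from 0 to 229.6 in homeostatic HEC (median 1) and from 0.86 to 790 in BEC (median 129). Of 79 homeostatic HEC, 38 lay below the lowest BEC, and 10 of 32 BEC lay above the highest homeostatic HEC. The difference of homeostatic HEC from BEC was -3.56 (2.43 ± 2.61 in HEC and 6.00 ± 2.81 in BEC, mean ± SD of log2 over cells), the 29th lowest of 9248 genes. With a pseudocount of 10 it was -2.22.

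Sdpr was higher in both treated groups than in homeostatic HEC, by 1.56 in inflamed and by 1.52 in dedifferentiated HEC. With a pseudocount of 10 these were 0.87 and 0.98 and neither was called. It reached 1 FPKM in 47 of 64 inflamed HEC (73.4%, exact Clopper-Pearson 95% interval 60.9% to 83.7%), 32 of 44 dedifferentiated HEC (72.7%, 57.2% to 85.0%), 40 of 79 homeostatic HEC (50.6%, 39.1% to 62.1%) and 30 of 32 BEC (93.8%, 79.2% to 99.2%). These intervals cover counting error over cells only. It reached 10 FPKM in 37 of 64 inflamed HEC, 19 of 44 dedifferentiated HEC (43.2%), 28 of 79 homeostatic HEC (35.4%) and 24 of 32 BEC. The highest homeostatic HEC was exceeded by 8 of 44 dedifferentiated HEC and 6 of 64 inflamed HEC. Both treated groups were still below BEC, by 2.003 in inflamed and by 2.05 in dedifferentiated HEC. From arithmetic means the differences were -1.50 and -0.70, so the second was no longer called, and 1 of 44 dedifferentiated HEC lay above the highest BEC.

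Prkcdbp, the cavin that binds protein kinase C delta and links caveolae to signalling, was high in inflamed HEC. It ranged from 1.56 to 1653 FPKM in inflamed HEC (median 189.5), from 0 to 687 in dedifferentiated HEC (median 77.995), from 0 to 776 in homeostatic HEC (median 41.7) and from 0 to 679 in BEC (median 4.02). Every inflamed HEC reached 1 FPKM, against 34 of 44 dedifferentiated HEC, 68 of 79 homeostatic HEC and 22 of 32 BEC. Inflamed HEC averaged 7.28 ± 2.11 and homeostatic HEC 4.88 ± 2.71 on the log2 scale, a difference of 2.40 and the 31st highest of 9525 genes. Homeostatic HEC were higher than BEC by 1.37, a call that was lost with a pseudocount of 10 (0.70), after rescaling by median ratios (0.65), from arithmetic means (0.27) and when cells were matched on genes detected (0.82). The difference of dedifferentiated from homeostatic HEC was 0.31, and 1.27 after rescaling by median ratios.

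The leading cavin of a cell differed between groups. Ptrf had the highest FPKM of the 3 cavins in 30 of 64 inflamed HEC, 34 of 44 dedifferentiated HEC, 55 of 79 homeostatic HEC and 23 of 32 BEC. Prkcdbp led in 30 of 64 inflamed HEC, 6 of 44 dedifferentiated HEC, 21 of 79 homeostatic HEC and 3 of 32 BEC. Of the summed cavin FPKM of a group, Prkcdbp made up 44.1% in inflamed, 22.3% in dedifferentiated and 23.4% in homeostatic HEC and 8.84% in BEC, and Sdpr 9.36%, 14.7%, 5.88% and 20.9% in the same order. The summed FPKM of the 5 coat genes, caveolins and cavins, had a median of 1193 in inflamed HEC, 1394 in dedifferentiated HEC, 1042 in homeostatic HEC and 2055 in BEC.

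**Figure D2:**
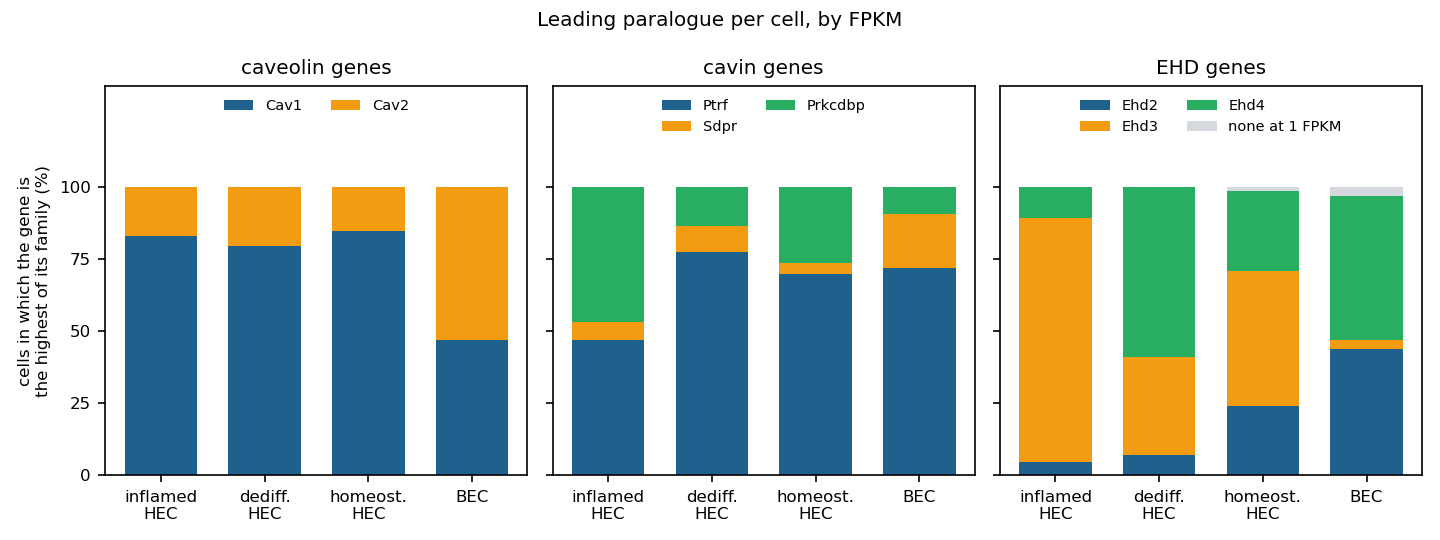
Share of cells of each group in which a gene had the highest FPKM of its family, for caveolins, cavins and the 3 EHD genes (64 inflamed HEC, 44 dedifferentiated HEC, 79 homeostatic HEC and 32 BEC). Prkcdbp leads the cavins in 46.9% of inflamed HEC and Ehd3 leads the EHD genes in 84.4% of them, against 9.38% and 3.13% of BEC.

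Plvap, the diaphragm protein recognised by the MECA-32 antibody, had the narrowest spread among cells of the 9 members in each HEC group. It ranged from 58.2 to 1293 FPKM in inflamed HEC (median 390), from 65.3 to 1450 in dedifferentiated HEC (median 422), from 23.3 to 1192 in homeostatic HEC (median 215) and from 8.46 to 1555 in BEC (median 194). Every one of the 219 cells reached 1 FPKM. The differences from homeostatic HEC were 0.86 in inflamed and 0.93 in dedifferentiated HEC, below the limit of 1 but not far below the SD of 1.12 among homeostatic HEC, and 7 and 8 of the 79 homeostatic HEC lay below the lowest inflamed and the lowest dedifferentiated HEC. The value of 0.93 ranked 93 from the top of 9008 genes and 0.86 ranked 750 of 9525. After rescaling by median ratios the first became 2.11. Homeostatic HEC differed from BEC by 0.19, and by -0.90 after rescaling by median ratios. Inflamed and dedifferentiated HEC were higher than BEC by 1.05 and 1.12, and from arithmetic means, at 0.53 and 0.61, neither was called.

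Among the EHD genes, Ehd3, which acts in endosome-to-Golgi and recycling transport and is known from glomerular endothelium, separated HEC from BEC more than any other member. It ranged from 4.04 to 1675 FPKM in inflamed HEC (median 502), from 0.30 to 1263 in dedifferentiated HEC (median 54.5), from 0 to 1158 in homeostatic HEC (median 116) and from 0 to 30.8 in BEC (median 0.53). The highest BEC lay below 61 of 64 inflamed HEC (95.3%), 27 of 44 dedifferentiated HEC (61.4%) and 54 of 79 homeostatic HEC (68.4%). Mean log2 levels were 8.51 ± 1.72 in inflamed, 5.45 ± 2.76 in dedifferentiated and 5.81 ± 2.81 in homeostatic HEC and 1.01 ± 1.16 in BEC.

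Homeostatic HEC were 4.81 above BEC (2.89 with a pseudocount of 10), the 33rd highest of 9248 genes, and inflamed HEC were 7.51 above BEC, the 5th highest of 9357. Dedifferentiated HEC were 4.44 above BEC, the 22nd highest of 8385. Within HEC, inflamed cells were 2.70 above homeostatic cells (1.799 from arithmetic means), the 20th highest of 9525 genes, and 13 of 79 homeostatic HEC lay below the lowest inflamed HEC. Dedifferentiated and homeostatic HEC differed by -0.36, which turned to 0.67 after rescaling by median ratios and to 0.43 when cells were matched on genes detected. Ehd3 reached 1 FPKM in 11 of 32 BEC (34.4%, 18.6% to 53.2%), which is about 7.34 fragments at the median depth, and 10 FPKM in 2 of 32. BEC held low levels of abundant HEC transcripts: mean Glycam1 was 19680 FPKM in inflamed, 18829 in dedifferentiated and 76371 in homeostatic HEC and 93.6 in BEC. Mean Ehd3 was 2.88%, 0.850%, 0.212% and 2.69% of mean Glycam1 in these groups, in the same order, and the part of free RNA in the Ehd3 of BEC was not tested.

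Ehd4, which is found on early endosomes, was higher in both treated groups than in homeostatic HEC. It ranged from 0.36 to 538 FPKM in inflamed HEC (median 66.5), from 1.11 to 1697 in dedifferentiated HEC (median 142), from 0 to 764 in homeostatic HEC (median 45.9) and from 0 to 632 in BEC (median 72.6). Dedifferentiated HEC were 1.65 above homeostatic HEC (2.74 after rescaling by median ratios), the 15th highest of 9008 genes, and 14 of 79 homeostatic HEC lay below the lowest dedifferentiated HEC. Inflamed HEC were 1.14 above homeostatic HEC, which was no longer called with a pseudocount of 10 (0.68), from arithmetic means (0.41) or when cells were matched on genes detected (0.99). Homeostatic HEC and BEC differed by 0.06, which was -0.83 after rescaling by median ratios.

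Ehd2, which stabilises the caveolar neck, was called higher in none of the comparisons. It ranged from 0.12 to 574 FPKM in inflamed HEC (median 15.8), from 0 to 423 in dedifferentiated HEC (median 3.02), from 0 to 735 in homeostatic HEC (median 26.9) and from 0 to 908 in BEC (median 25.3). Dedifferentiated HEC were lower than homeostatic HEC by 1.18, a call that was lost with a pseudocount of 10, at -0.67, after rescaling by median ratios, at -0.45, and from arithmetic means, at -0.49. The difference was -0.23 in inflamed against homeostatic HEC and -0.12 in homeostatic HEC against BEC. In dedifferentiated HEC against BEC it was -1.30, and -1.11 from arithmetic means, so it was called lower by both.

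The most abundant EHD gene of a cell was Ehd3 in 54 of 64 inflamed HEC, 15 of 44 dedifferentiated HEC, 37 of 79 homeostatic HEC and 1 of 32 BEC. Ehd4 led in 7 of 64 inflamed, 26 of 44 dedifferentiated and 22 of 79 homeostatic HEC and in 16 of 32 BEC, and Ehd2 led in 3, 3, 19 and 14 cells of these groups. Ehd3 made up 73.4% of the summed FPKM of the 3 genes in inflamed HEC, 34.6% in dedifferentiated HEC, 46.1% in homeostatic HEC and 0.955% in BEC. Ehd1, the remaining paralogue, was rare: it reached 1 FPKM in 10 of 64 inflamed, 2 of 44 dedifferentiated and 16 of 79 homeostatic HEC, and its highest value in a BEC was 0.44 FPKM.

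**Figure D3:**
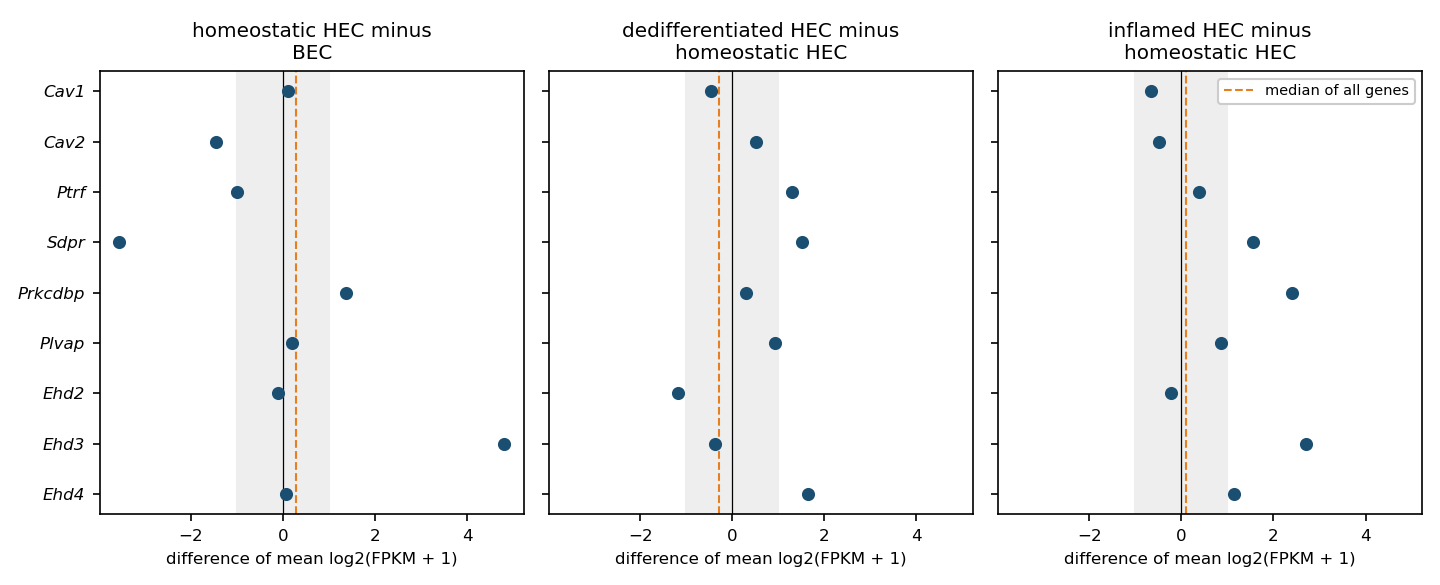
Difference of mean log2(FPKM + 1) for each of the 9 genes in 3 comparisons. The grey band spans the values that are not called, from -1 to 1, and the dashed line is the median of all genes (0.28, -0.30 and 0.10 from left to right). Ehd3 and Sdpr lie farthest out on the left, at 4.81 and -3.56, and Ehd3 and Prkcdbp on the right, at 2.70 and 2.40.

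Counted over the 9 members, all of which passed the filter on low values, 2 were called higher in homeostatic HEC than in BEC (Ehd3 and Prkcdbp), where 17% of all 9248 genes were, and 3 were called lower (Sdpr, Cav2 and Ptrf), where 4.4% of all genes were (21.4% in either direction). In dedifferentiated against homeostatic HEC, 3 were higher (Ehd4, Sdpr and Ptrf) against 0.833% of 9008 genes, and 1 was lower (Ehd2) against 9.52%. Together, 4 members were called there against 10.4% of all genes. In inflamed against homeostatic HEC, 4 were higher (Ehd3, Prkcdbp, Sdpr and Ehd4) against 5.48% of 9525 genes, and none was lower against 2.6%, while 8.08% of all genes were called in either direction. The median over the 9 members was 0.06, 0.51 and 0.86 in these comparisons, against 0.28, -0.30 and 0.10 over all genes. Against BEC, 4 members were called higher in inflamed HEC (Ehd3, Prkcdbp, Ehd4 and Plvap), with 21.8% of all genes higher, and 2 lower (Sdpr and Cav2), with 3.87% lower (25.6% in either direction). From arithmetic means Ehd4 (0.07) and Plvap (0.53) were no longer called there, and Prkcdbp was at 1.95 in place of 3.77. In dedifferentiated HEC against BEC, 4 were higher (Ehd3, Ehd4, Prkcdbp and Plvap), with 11.3% of all genes higher, and 2 lower (Sdpr and Ehd2), with 9.45% lower (20.8% in either direction). There arithmetic means gave 0.86 for Ehd4, 0.61 for Plvap and -0.70 for Sdpr, none of them called, and -1.12 for Cav2. These comparisons share cells, since homeostatic HEC enter 3 of them and BEC enter 3. A difference exceeded the SD over cells of both groups for Ehd3 against BEC in all 3 HEC groups, for Sdpr in homeostatic HEC against BEC and for Prkcdbp in inflamed HEC against BEC, and in no other of the comparisons above.

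The other genes of the pathway were described from 4 lists chosen with results of these data known, in homeostatic HEC against BEC and in each treated group against homeostatic HEC. Of 15 other genes of the caveolar coat and of scission, 9 passed the filter, and Cav3, Murc, Pacsin1, Pacsin3, Dnm1 and Src did not. In homeostatic HEC against BEC 3 of the 9 were higher, the membrane-bending Pacsin2 (1.27), the dynamin Dnm3 (1.27) and the flotillin Flot2 (1.19), with a list median of 0.83 and 17% of all genes higher. From arithmetic means Dnm3 and Flot2 turned to -0.32 each. Nostrin, which traffics endothelial nitric oxide synthase, was lower by 1.77 in dedifferentiated than in homeostatic HEC (-0.89 from arithmetic means), where 9.52% of all genes were lower. The other 8 genes were not called there. None of the 9 was called in inflamed against homeostatic HEC, where 8.08% of all genes were called in either direction. Ehd1 differed by 0.83 in homeostatic HEC against BEC, by -0.66 in dedifferentiated and by -0.16 in inflamed HEC against homeostatic HEC. In the same comparisons Dnm2, the ubiquitous dynamin, differed by -0.54, 0.79 and -0.38 and Nos3, the nitric oxide synthase that Cav1 binds, by -0.23, 0.27 and 0.74, and Pacsin2 by -0.62 and -0.57 in the last 2.

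Of 13 genes of clathrin-mediated uptake, 2 were higher (the light chain Clta, 2.01, and the adaptor subunit Ap2s1, 1.13) and 1 lower (the clathrin assembly protein Picalm, -2.44) in homeostatic HEC than in BEC, where 17% and 4.4% of all genes were. From arithmetic means Clta was at 0.93 and Ap2s1 at -0.01, so neither was called. In inflamed against homeostatic HEC, 4 of 13 were higher, where 5.48% of all genes were. These were Ap2s1 (1.98), the light chain Cltb (1.6004), Picalm (1.47) and the adaptor subunit Ap2m1 (1.46). Arithmetic means did not call Picalm (0.98) and Ap2m1 (0.79). The heavy chain Cltc was lower by 1.096 in dedifferentiated than in homeostatic HEC, where 9.52% of all genes were lower, and at -0.32 from arithmetic means. Of 10 receptors and regulators of transcytosis, 8 passed, without Lrp1 and Mfsd2a. In homeostatic HEC 4 of these were lower than in BEC, where 4.4% of all genes were. They were the lipase anchor Gpihbp1 (-7.08), the fatty acid receptor Cd36 (-5.34), the lipoprotein receptor Scarb1 (-1.82) and Acvrl1 (-1.05), a low-density lipoprotein transcytosis receptor. The antibody receptor Fcgrt (1.67) and the insulin receptor Insr (1.32) were higher in dedifferentiated HEC, and Insr (3.36) was higher in inflamed HEC, than in homeostatic HEC. Of all genes, 0.833% were higher in dedifferentiated and 5.48% in inflamed HEC. Of 10 partners of EHD proteins and recycling regulators, 1, the recycling GTPase Rab11a, was higher in homeostatic HEC than in BEC, by 1.38, but at -0.09 from arithmetic means, where 17% of all genes were higher. None of the 9 partners that passed in either treated group against homeostatic HEC was called. The list median was 0.72 in inflamed HEC, against 0.10 over all genes. It was -0.18 in dedifferentiated HEC, against -0.30 over all genes. Of all genes, 10.4% were called in either direction in dedifferentiated and 8.08% in inflamed HEC.

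Within a group, members were only weakly correlated over cells. All 9 reached 1 FPKM together in 38 of 64 inflamed HEC, 19 of 44 dedifferentiated HEC, 26 of 79 homeostatic HEC and 8 of 32 BEC. Cav1 and Ptrf, which endothelial caveolae both require, reached 10 FPKM together in 61, 41, 70 and 27 cells of these groups. Over the 36 pairs of members, the median Pearson r of log2(FPKM + 1) over cells was 0.06 in inflamed HEC, 0.13 in dedifferentiated HEC, 0.18 in homeostatic HEC and 0.08 in BEC, and r was above 0.3 for 2, 6, 6 and 2 pairs. The highest were Ptrf with Sdpr in inflamed HEC (0.38), Cav1 with Cav2 in dedifferentiated HEC (0.54), Plvap with Ehd4 in homeostatic HEC (0.43) and Prkcdbp with Ehd2 in BEC (0.58). The neighbours Cav1 and Cav2 were not the closest pair in the other 3 groups. Cells of a group share depth differences and the number of detected genes, with which Sdpr had r 0.55 in BEC and 0.02 in inflamed HEC. In homeostatic HEC every member but Ehd3 had a negative r with Glycam1, from -0.07 for Prkcdbp to -0.42 for Sdpr and -0.43 for Ehd4. Ehd3 had r 0.32, or 0.18 as a Spearman correlation of ranks. Glycam1 reached 295547 FPKM in a homeostatic HEC, a group in which all genes summed to a median of 664817 FPKM. Its part in these values was not tested.

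**Figure D4:**
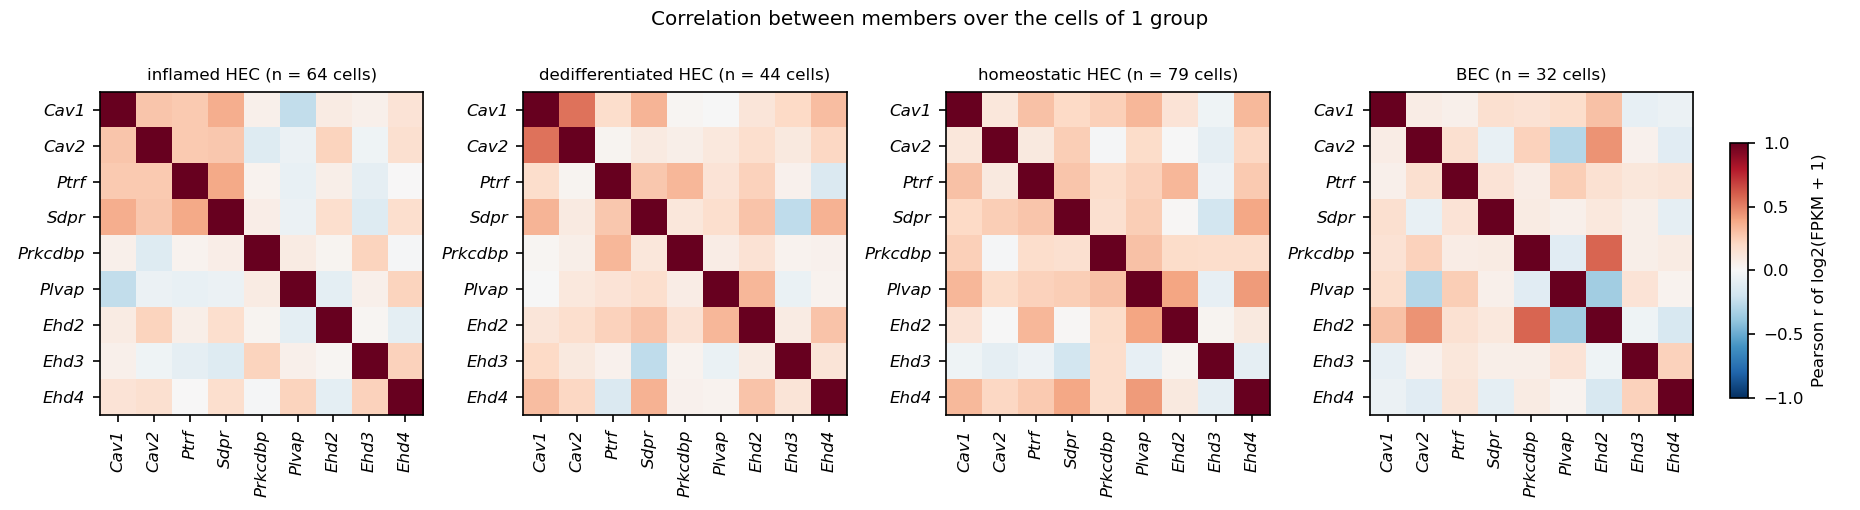
Pearson r between the log2(FPKM + 1) values of each pair of the 9 genes over the cells of 1 group (n = 64 inflamed HEC, 44 dedifferentiated HEC, 79 homeostatic HEC and 32 BEC). The diagonal is 1 by construction. Most pairs are pale, and the darkest off the diagonal are Prkcdbp with Ehd2 in BEC (0.58) and Cav1 with Cav2 in dedifferentiated HEC (0.54).

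The genes most like each member were sought among 3870 genes over the 219 cells, with each group centred on its own mean. Cav1 was closest to the ectonucleotidase Entpd1 (r 0.38) and the endothelial adhesion molecule Pecam1 (0.36), and Ptrf to Pecam1 (0.32). Sdpr was closest to the fatty acid binding protein Fabp4 (0.37), the endothelial phosphatase Ptprb (0.35) and Fbln2 (0.33). Ehd4 was closest to the lipid phosphatase Ppap2b (0.39), Pls3 (0.35) and the receptor Calcrl (0.35), and Ehd2 to Sparc (0.30) and Ptprb (0.29). Ehd3 was closest to the sulfotransferase Chst4 (0.32), the kinase Dclk1 (0.32) and the complement protease C1s1 (0.30). Plvap was closest to Gnai2 (0.36), Prkcdbp to Rcan1 (0.27) and Cav2 to Cbx3 (0.30). All of these are weak correlations in sparse values and share the depth of the libraries.

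Caveolae are also abundant in pericytes, smooth muscle, fibroblasts and adipocytes, so markers of those cells were read in the same libraries. The 9 pericyte and smooth muscle markers summed to a median of 0.38 FPKM in inflamed, 0.24 in dedifferentiated and 0.54 in homeostatic HEC and 1.03 in BEC, with a highest cell of 505, 483, 20.3 and 1208 FPKM. The 5 adipocyte markers summed to at most 68.2 FPKM in any cell, with Adipoq, Plin1 and Lep at 0 in all. The 7 fibroblastic reticular markers had a median sum of 0 in every group and a highest cell of 1857 FPKM in inflamed, 0.1 in dedifferentiated and 604 in homeostatic HEC and 19.4 in BEC. Of the 6 lymphatic markers, Lyve1 was higher by 1.54 in inflamed than in homeostatic HEC and reached 1 FPKM in 20 of 64 inflamed and 9 of 79 homeostatic HEC, while Prox1 was listed at 0 in all HEC. Flt4 was highest in BEC, with a mean log2 level of 1.85 against 0.11 in homeostatic HEC. It reached 1 FPKM in 12 of 32 BEC, 4 of 64 inflamed, 2 of 44 dedifferentiated and 4 of 79 homeostatic HEC. The lymphatic markers summed to at most 725 FPKM in inflamed, 522 in dedifferentiated and 308 in homeostatic HEC and 134 in BEC, and their part in the differences of the members was not tested. At least 2 markers of 1 other cell type reached 10 FPKM in 3 of 64 inflamed HEC, 2 of 44 dedifferentiated HEC, 6 of 79 homeostatic HEC and 1 of 32 BEC, mainly by leukocyte genes. Without these cells the difference of homeostatic HEC from BEC was 4.86 for Ehd3, -3.59 for Sdpr and -0.94 for Ptrf, which was then no longer called. The difference of inflamed from homeostatic HEC was 2.77 for Ehd3 and 2.44 for Prkcdbp without them.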

How the data were processed

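Single endothelial cells of mouse lymph nodes were sorted, captured on the Fluidigm C1 system and sequenced as Nextera XT libraries, per the labels' protocols. The deposited table holds FPKM values computed by the authors, with 2 decimals, for 24049 genes and 220 cells. The submitters' processing notes name RSEM 1.2.18, CASAVA 1.8 and the build mm10. What each was used for, the annotation, cell filters and doublet handling are not stated in these sources. Genes overlapping another gene may share reads with it.

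Cells were grouped by the labels. Since FPKM are not counts, count models were not used, and with 1 sample a group there are no p-values. From the deposited FPKM, log2(FPKM + 1) was averaged over the cells of a group, with its SD, and group averages were subtracted. Shares of cells at 1 FPKM have exact Clopper-Pearson 95% intervals, for counting error only. This scale understates differences of low genes. Genes at 1 FPKM in over 10% of the cells of either group entered the shares of all genes. Depth was approximated from the step that 1 fragment makes in low values, and was 0.994 to 1.01 times the true depth in 20 simulated cells. The simulation used the same transcript lengths as the approximation, so it cannot show the error where the authors' lengths differ. Inflamed cells 43 and 60 were averaged, since r exceeded 0.9. All members were named, with list genes past 1 (at most 4 in each direction per list), Ehd1, Pacsin2, Dnm2 and Nos3, and for each member the genes of highest r among those at 1 FPKM in over 25% of each HEC group, of which some are given. The members, lists and motifs were chosen with earlier results of these data known. Alternatives were other pseudocounts (0.1 and 10), rescaling of cells, arithmetic means, matching on detected genes, other filters and leaving out cells. Positions are from GENCODE release M21 (GRCm38) and promoters from RefSeq (GRCm38.p6). Python 3.11.15, numpy 2.4.6, pandas 2.3.3 and scipy 1.17.1 were used.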

Additional observations from a re-analysis of the deposited data

How the results depend on the processing

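Of 270 recomputed differences of members (27 differences, those of the 3 comparisons of homeostatic HEC with BEC and of each treated group with homeostatic HEC, under 10 alternatives), 252 stayed on their side of the limit of 1, 15 were no longer called, 3 became called and none of the called ones changed sign. Of the members, 1 in place of 2 was called higher in homeostatic HEC than in BEC with a pseudocount of 10, after rescaling by median ratios, from arithmetic means and in cells matched on detected genes, the lost one being Prkcdbp. Ptrf was lost with a pseudocount of 10 and without cells with markers of another type, which left 2 in place of 3 lower. Inflamed and dedifferentiated HEC against BEC were recomputed from arithmetic means only. In dedifferentiated against homeostatic HEC, 6 in place of 3 were higher after rescaling by median ratios. The share of all genes called higher under that rescaling is not given here, so the 6 cannot be read against it. That rescaling also raised the median of all genes, from -0.30 to 0.05. Whether the added calls are particular to the members was not tested. In the same comparison Sdpr was no longer called higher with a pseudocount of 10, nor Ptrf from arithmetic means (0.77). There 0 in place of 1 were lower under median ratios, with a pseudocount of 10 and from arithmetic means. In inflamed against homeostatic HEC, 2 in place of 4 were higher with a pseudocount of 10. Median ratios moved the median of all genes to 0.01 in homeostatic HEC against BEC and to 0.05 in dedifferentiated against homeostatic HEC, from 0.28 and -0.30. With genes at 1 FPKM in over 50% of cells, 38.6% of genes were higher and 8.78% lower in homeostatic HEC than in BEC, and 1.86% higher and 23.4% lower in dedifferentiated than in homeostatic HEC. Of 36 shares of cells with a member, 19 moved beyond their interval when 10 FPKM was required in place of 1. The causes were not tested. No paired analysis was possible because cell numbers only name cells and no animal or batch is given. At 1 FPKM in BEC, Ehd3 rests on about 7.34 fragments, which limits what can be said of its low values there.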
